A study of Mus musculus with 19 samples.

Results

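Genes measured in both overexpression tables of the series were sorted by how their response to added Pou3f1 differed between 48 h and 14 days. A gene entered when its Ensembl identifier was in both tables and its mean normalized count was at least 10 in each. This left 14040 genes of the 25064 listed in either table and of the 20865 listed in both. The genes just inside the limit were Il1a, Dnah14 and Olfr420, with mean counts of 10.03, 10.05 and 10.05 at 48 h in the authors' deposited table, and the nearest outside were Cdc34b, with 9.999 there, and Vmn2r93, with 9.994 in the 14 day table.

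In the experiment, eyes of wild-type CD1 mice were electroporated in vivo at postnatal day 1 with plasmid DNA at 3 ug/ul, and green fluorescent retinal cells were sorted and RNA sequenced. The 4 groups were Gfp control cells after 48 h (3 libraries), Pou3f1 cells after 48 h (3 libraries), Gfp control cells after 14 days (4 libraries) and Pou3f1 cells after 14 days (5 libraries). The sample labels give 14 days for the late groups, while the protocol text gives postnatal day 14 for the collection. Each replicate was a pool of sorted cells combined to 150000 cells, so several eyes can share a library, and the promoter of the plasmid is not given in the sources used here. Another table compared whole retinas of C57B6J mice at E17.5, 2 heterozygous and 2 homozygous Pou3f1 knockout libraries, and was used here as a separate readout. The name of that deposited table carries a different embryonic stage from the labels, and this was not resolved.

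Pou3f1 encodes a POU domain transcription factor, which binds the octamer motif of DNA and is active in neurons and myelinating glia. In the retina, ganglion cells are the output neurons whose axons reach the brain, and they are born before birth in mice. Electroporation at birth mainly reaches dividing progenitors, which then give rise to rods, bipolar cells, amacrine cells and Müller glia.

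The values are log2 fold changes of Pou3f1 over Gfp, given with their standard error (SE) by the authors' deposited tables, and the response difference is the 14 day fold change minus the 48 h fold change. The tables give no value per library, so neither the spread between libraries nor the depth of a library can be shown. The SE stands for that spread in each table, but it belongs to a shrunken fold change. No SE exceeded 0.296 at 48 h or 0.297 at 14 days, and near these limits it reflects the shrinkage as well as the spread. Nothing says that the pools came from separate animals, so the spread among these libraries may be technical. All p-values rest on that spread and on the shrinkage alone. The 2 tables share no library, and the median SE of the joined genes was 0.195 at 48 h and 0.123 at 14 days. The difference was tested with a two-sided z test on the SE of both times, with Benjamini-Hochberg adjustment over all 14040 genes, and every adjusted p of a difference below comes from it.

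A gene was called at a time when the authors' adjusted p was under 0.05. Genes called at both times in the same direction were termed lasting, and in opposite directions reversed. Transient genes were called at 48 h only and late genes at 14 days only, and both also needed an adjusted p under 0.05 for the difference. Among the joined genes, the authors' deposited tables called 210 higher (1.5%) and 229 lower (1.63%) at 48 h, and 1825 higher (13%) and 1369 lower (9.76%) at 14 days.

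The response differed between the times for 873 genes (6.22% of those joined). It was higher at 14 days than at 48 h for 639 genes (4.55%) and lower for 234 (1.67%). By class, 77 genes were lasting and higher (0.548%) and 49 lasting and lower (0.349%). Transient genes numbered 52 higher (0.37%) and 65 lower (0.463%) at 48 h. Late genes numbered 460 higher (3.28%) and 114 lower (0.812%) at 14 days. Reversed genes numbered 23 that went from lower to higher (0.164%) and 20 that went from higher to lower (0.142%). Late genes that were higher were thus the most numerous of these 8 groups.

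Calls at 1 time were often left unsorted, since the difference did not pass. This held for 153 genes called at 48 h only, 61 higher (0.434%) and 92 lower (0.655%), and for 2451 called at 14 days only, 1265 higher (9.01%) and 1186 lower (8.45%). For 1385 of the 2451 the 14 day fold change lay inside the 95% interval of the 48 h fold change, so the 48 h data do not separate a late response from one already present. The class rule allows this for 0 of the 574 late genes, so that count is no result. For 437 of the late genes the 95% interval at 48 h held 0. At 48 h 443 of the 574 had the opposite sign, with median fold changes (log2) of -0.18 for late higher and 0.38 for late lower genes. The rule asks for a called difference, which favours opposite signs, so late does not mean that nothing differed at 48 h. A further 80 genes (0.57%) were higher and 44 (0.313%) lower at 14 days than at 48 h without being called at either time.

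Genes called at 1 time were chosen by their fold change then, so a smaller median at the other time is given as a description only. For the 210 higher genes the median fold change (log2) was 0.89 at 48 h, then 0.19 at 14 days, and 139 of them (66.2%) kept the sign. The 229 lower genes went from a median of -0.72 to -0.13, and 156 (68.1%) kept the sign. Over all joined genes 54.8% had the same sign at both times. Across genes, which are not independent replicates, the fold changes at the 2 times had a Pearson r of 0.18 and a Spearman rho of 0.14. Genes called higher at 14 days had a median of 0.56 then and 0.03 at 48 h, and those called lower -0.44 and -0.14.

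**Figure D1:**
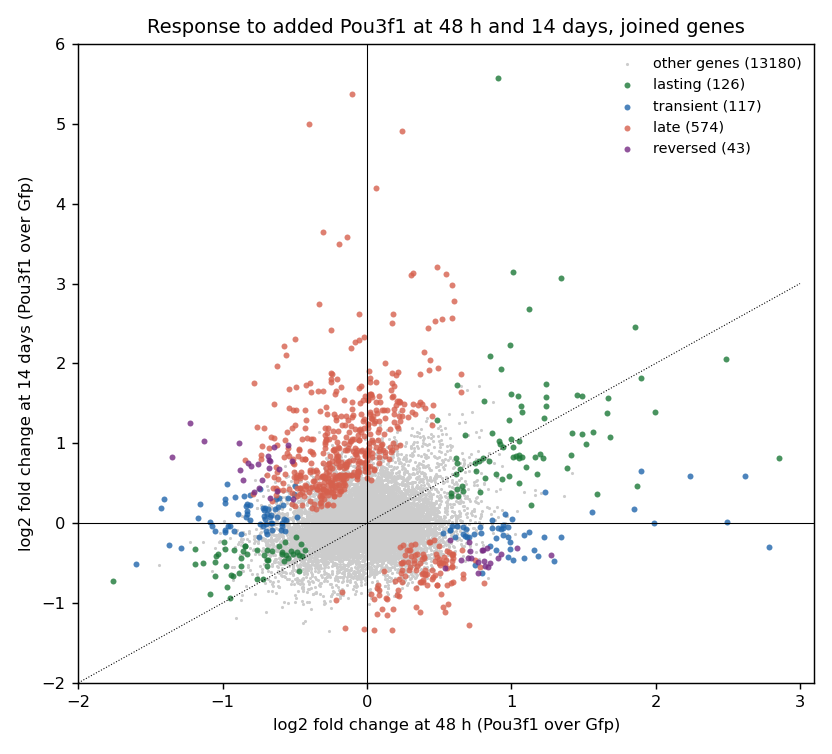
Log2 fold change of Pou3f1 over Gfp at 48 h (horizontal) and at 14 days (vertical), with 1 point per joined gene, coloured by class, and grey for all others. The dotted line marks equal fold changes. For 437 of the 574 late genes the 95% interval on the horizontal axis holds 0, and for 97 of the 117 transient genes that on the vertical axis does.

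Pou3f1 itself was called at both times (chr4:124656807-124660655, plus strand, GRCm38). In the authors' deposited tables it had a log2 fold change of 0.91 ± 0.26 at 48 h, at a mean count of 37279, and 5.57 ± 0.27 at 14 days, at a mean count of 16972. The difference was 4.67 ± 0.38 (adjusted p = 1.17e-31), the smallest adjusted p of the genes described here. The deposited fold changes are shrunken toward 0, which understates large ones, and the SE of Pou3f1 are near the largest of each table, 0.296 and 0.297. The deposited fold change of Pou3f1 differed between the times, but the size of the overexpression at each time cannot be read from it. The part of the overexpression in the other differences was not tested. Plasmid and endogenous transcripts cannot be told apart.

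Of the 8 leading lasting genes that were higher, 4 encode surface proteins of neurons. Slitrk1 and Slitrk5, leucine-rich repeat proteins of neurites and synapses, Alcam, an adhesion protein of growing axons, and Col25a1, a membrane collagen of neurons, were higher at both times in the authors' deposited tables. In the authors' deposited tables Slitrk1 had a log2 fold change of 1.99 ± 0.24 at 48 h and 1.39 ± 0.18 at 14 days. Col25a1 had 1.85 ± 0.29 and then 2.46 ± 0.25 there. The zinc finger gene Tshz3 had 1.24 ± 0.18 and 1.58 ± 0.18, and Dock11, an activator of the GTPase Cdc42, 1.22 ± 0.18 and 1.31 ± 0.17 in the authors' deposited tables. The differences of these 4 genes did not pass, and they lay between -0.60 for Slitrk1 and 0.61 for Col25a1. Ryr1, a calcium release channel, and Khdrbs2, an RNA-binding protein, were also among the 8 leading genes.

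The leading lasting genes that were lower included Ngfr, the neurotrophin receptor p75, and Timp3, an inhibitor of matrix metalloproteinases. In the authors' deposited tables Ngfr had -0.87 ± 0.16 at 48 h and -0.54 ± 0.11 at 14 days, and Timp3 -0.97 ± 0.23 and -0.81 ± 0.19. Xylt1, which starts glycosaminoglycan chains on proteoglycans, had almost the same value at both times, -0.95 ± 0.25 and -0.94 ± 0.20 in the authors' deposited tables. Ddit4, an inhibitor of mTOR signalling induced by stress, and Eno1, a glycolytic enzyme, were lower as well. Their 14 day values in the authors' deposited table were -0.39 ± 0.10 and -0.47 ± 0.11.

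Of the 126 lasting genes, 111 had no detectable difference between the times, and their fold changes were not shown to be equal by that. In size, 91 lasting genes were larger at 48 h and 35 at 14 days. The class needs a call at both times, and with the larger SE at 48 h a call then takes a larger fold change. The lasting fold changes nearest 0 were 0.49 and -0.43 at 48 h, and 0.23 and -0.18 at 14 days. The split by size thus depends on the rule and is a description only. For 9 genes the deposited fold change grew beyond error. Besides Pou3f1 these included Eomes, a T-box factor of ganglion and other neurons, with 1.34 ± 0.24 at 48 h and 3.07 ± 0.26 at 14 days in the authors' deposited tables (difference 1.72 ± 0.36, adjusted p = 0.000132). Ebf3, a helix-loop-helix factor of neurons, grew by 1.55 ± 0.34 (adjusted p = 0.000495), and Neto2, a kainate receptor auxiliary protein, by 1.10 ± 0.25 (adjusted p = 0.00108). Basp1, a growth cone protein, and Klf14, Rprm, AW551984 and 6330403K07Rik made up the rest. The response shrank for 6 genes, Tll2, Dgkb, Glrb, Dcbld1, Plekha2 and Diras2. Glrb, the beta subunit of glycine receptors, had 1.60 ± 0.22 at 48 h and 0.36 ± 0.13 at 14 days in the authors' deposited tables (difference -1.23 ± 0.25, adjusted p = 0.00012). These names were listed in full after their values were seen.

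The octamer ATGCAAAT, read on either strand, was searched in the 250 bases before each RefSeq gene start (GRCm38.p6), since it is the motif of POU factors. RefSeq promoters matched 10767 of the 14040 joined genes, which is under 80%, so shares between classes are not compared. Among matched promoters of lasting genes that were higher, 3 of 61 held it. In the whole set of RefSeq promoters 526 of 32851 (1.6%) held it, or 490 of 27025 genes (1.81%), and of the joined genes 164 of 10767 (1.52%). Among lasting lower genes 0 of 36 had it, and among transient genes 1 of 38 higher and 2 of 49 lower. Late genes had it in 4 of 342 higher and 1 of 73 lower, and reversed genes in 0 of 14 higher and 0 of 8 lower. Capitals mark the octamer, or its reverse complement ATTTGCAT. Of the 3 lasting higher genes that held it, the windows of Col25a1 and Ermn are shown because they hold no GENCODE exon. They lie at chr3:130180595-130180844 (plus strand) and chr2:58052865-58053114 (minus strand), directly upstream of the RefSeq gene start. In GENCODE, Col25a1 begins further upstream, at base 130131501, so its window lies within the gene there. The window of Tent5a, at chr9:85327151-85327400 (minus strand), overlaps the first exon of the gene in GENCODE by 198 bases and is not printed.
Col25a1: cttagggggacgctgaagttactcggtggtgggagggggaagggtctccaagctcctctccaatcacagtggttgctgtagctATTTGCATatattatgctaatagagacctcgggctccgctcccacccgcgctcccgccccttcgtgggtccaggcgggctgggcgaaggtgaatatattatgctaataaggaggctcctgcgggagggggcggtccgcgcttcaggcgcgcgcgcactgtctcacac
Ermn: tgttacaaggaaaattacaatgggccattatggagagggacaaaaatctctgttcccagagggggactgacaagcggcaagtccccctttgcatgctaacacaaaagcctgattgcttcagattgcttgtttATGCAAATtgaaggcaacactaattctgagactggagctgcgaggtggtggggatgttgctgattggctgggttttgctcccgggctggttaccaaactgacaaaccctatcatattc
The match starts 167 bases before the RefSeq start of Col25a1, 118 before that of Ermn and 241 before that of Tent5a. Ermn, which encodes a cytoskeletal protein of myelinating cells, had 1.05 ± 0.24 at 48 h and 1.02 ± 0.30 at 14 days in the authors' deposited tables. Tent5a, a poly(A) polymerase, had 1.17 ± 0.25 and 0.83 ± 0.24 there. A match is a description of the letters in the window and not evidence that the factor binds there.

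Transient genes that were higher at 48 h had 14 day values between -0.62 and 0.65 in the authors' deposited table. Tafa4 (chr6:96831203-97060413, minus strand, GRCm38), a secreted chemokine-like protein of neurons, led them. Tafa4 went from 2.78 ± 0.29 at 48 h to -0.31 ± 0.17 at 14 days in the authors' deposited tables, a difference of -3.09 ± 0.33 (adjusted p = 2.35e-17). Scd1, the enzyme that desaturates fatty acids, had 2.62 ± 0.27 and 0.59 ± 0.27 there, a difference of -2.03 ± 0.38 (adjusted p = 1.98e-05). Tmem196, a membrane protein, had 1.85 ± 0.23 and 0.18 ± 0.21 in the authors' deposited tables. The cadherin Cdh7 and the protocadherin Pcdh20, which join neurons of like type, were also transient, with differences of -1.65 ± 0.40 (adjusted p = 0.00202) and -1.42 ± 0.34 (adjusted p = 0.00147). Dsc2, a desmosomal cadherin, Lgals4, a galectin, Glb1l, a galactosidase-like protein, and Mapk12, a p38 kinase, completed the named genes together with mt-Nd3, described below.

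Transient genes that were lower at 48 h were led by Ass1 (chr2:31470207-31520672, plus strand), which makes argininosuccinate in arginine synthesis. Ass1 had -1.43 ± 0.19 at 48 h and 0.19 ± 0.17 at 14 days in the authors' deposited tables, a difference of 1.62 ± 0.25 (adjusted p = 5.55e-08). Of the 42 synaptic vesicle and active zone genes 2 were transient, Nrxn3 and Cplx3. The postsynaptic scaffold gene Shank1 went from -0.81 ± 0.18 to 0.35 ± 0.17 and the presynaptic adhesion gene Nrxn3 from -0.98 ± 0.22 to 0.25 ± 0.16 in the authors' deposited tables. Rgs8, a regulator of G protein signalling, had a difference of 1.29 ± 0.23 (adjusted p = 4.81e-06). Of 38 guidance receptors 3 were transient and lower, Plxna2, Ephb1 and Cdon, and of 31 guidance ligands 1 was, the semaphorin Sema5a. The share over all joined genes was 0.463%. Plxna2 is a plexin and Ephb1 the ephrin receptor of ganglion cell axons that stay on their own side of the brain. Ephb1 had -0.83 ± 0.16 at 48 h and 0.24 ± 0.23 at 14 days in the authors' deposited tables (difference 1.07 ± 0.28, adjusted p = 0.0056). Over both directions, the 95% interval at 14 days held 0 for 97 of the 117 transient genes, and 84 had the opposite sign at 14 days.

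Late genes that were higher included transcription factors of neurons. Pou4f2 (chr8:78433010-78436645, minus strand), a POU factor that drives ganglion cell differentiation, had -0.30 ± 0.29 at 48 h and 3.64 ± 0.26 at 14 days in the authors' deposited tables. Its difference was 3.95 ± 0.39 (adjusted p = 2.47e-20), at mean counts of 30.7 and 371. The 48 h SE of Pou4f2 is near the largest at that time, 0.296, so its 48 h fold change is strongly shrunken and hard to read. Bcl11a, a zinc finger factor of neurons, had 0.18 ± 0.18 and then 2.50 ± 0.23 in the authors' deposited tables.

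Other leading late genes had other roles. Peg10, an imprinted gene derived from a retrotransposon, had 0.52 ± 0.20 and 2.55 ± 0.13 in the authors' deposited tables (difference 2.03 ± 0.24, adjusted p = 2.18e-14). Rab3b, a GTPase of synaptic vesicles, differed by 2.57 ± 0.31 (adjusted p = 4.53e-14) and Thbs1, a matrix protein released by glia, by 2.72 ± 0.33 (adjusted p = 1.13e-13). Ptpro, a receptor phosphatase of axons, differed by 2.01 ± 0.24 (adjusted p = 2.06e-13). Mpeg1, a pore protein of macrophages, and Usp18, which is induced by interferon, were also among the 8 leading genes. At 14 days 201 of the 460 genes were at least 2-fold higher, while 14 of the 114 late lower genes were at least 2-fold lower.

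Late genes that were lower had a median log2 fold change of -0.59 at 14 days, and late genes that were higher 0.91. Scara3, a scavenger receptor-like protein, had -0.02 ± 0.22 at 48 h and -1.32 ± 0.14 at 14 days in the authors' deposited tables (difference -1.3 ± 0.26, adjusted p = 6.02e-05). Glul, the glutamine synthetase of Müller glia, had -0.21 ± 0.12 and -0.96 ± 0.19 there (difference -0.75 ± 0.22, adjusted p = 0.0211, or 0.119 when Wald scores are compared). Ogfrl1, an opioid growth factor receptor-like protein, differed by -0.98 ± 0.19, and Timm44, a part of mitochondrial protein import, by -0.87 ± 0.21 (adjusted p = 5.04e-05 and 0.0028). Pseudogenes made up 20 of the 114, and 440 of all joined genes were pseudogenes. Median GC content of the transcripts was 43% for late lower and 51.8% for late higher genes, against 49.5% for all joined genes.

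Reversed genes that went from lower to higher included Grik3 (chr4:125490700-125714173, plus strand), a kainate receptor subunit. Grik3 had -1.13 ± 0.19 at 48 h and 1.03 ± 0.18 at 14 days in the authors' deposited tables, a difference of 2.16 ± 0.26 (adjusted p = 3.19e-13). Slit1, a repellent ligand of Robo receptors, went from -0.64 ± 0.20 to 0.95 ± 0.19 in the authors' deposited tables. Tbc1d9, a Rab regulator, differed by 1.52 ± 0.20 (adjusted p = 1.39e-11), and Tmem92 by 2.48 ± 0.36 (adjusted p = 3.51e-09). Prdm1, which favours the rod over the bipolar fate, had -0.75 ± 0.17 and 0.43 ± 0.16 in the authors' deposited tables (difference 1.18 ± 0.23, adjusted p = 5.91e-05). Sdk1, a synaptic adhesion protein, and Kcnd3, a potassium channel of the A type, reversed in the same way, by 1.4 ± 0.25 and 1.27 ± 0.25 (adjusted p = 5.27e-06 and 4.81e-05). Enc1, Arhgap31, Tmem158 and Trib1 completed the 8 leading genes of this direction.

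Reversed genes that went from higher to lower were led by the mitochondrial genome, described next. Outside it, Slc38a9, a lysosomal amino acid sensor, differed by -1.39 ± 0.22 (adjusted p = 5.75e-08) and Slx1b, a nuclease subunit, by -1.14 ± 0.20 (adjusted p = 2.54e-06). The class also held a pair of axon guidance ligands. Ntn4, a netrin, had 0.54 ± 0.16 at 48 h and -0.56 ± 0.15 at 14 days in the authors' deposited tables, and Sema6c, a semaphorin, 0.71 ± 0.18 and -0.35 ± 0.14. Their differences were -1.11 ± 0.22 and -1.07 ± 0.23 (adjusted p = 7.52e-05 and 0.000211).

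**Figure D2:**
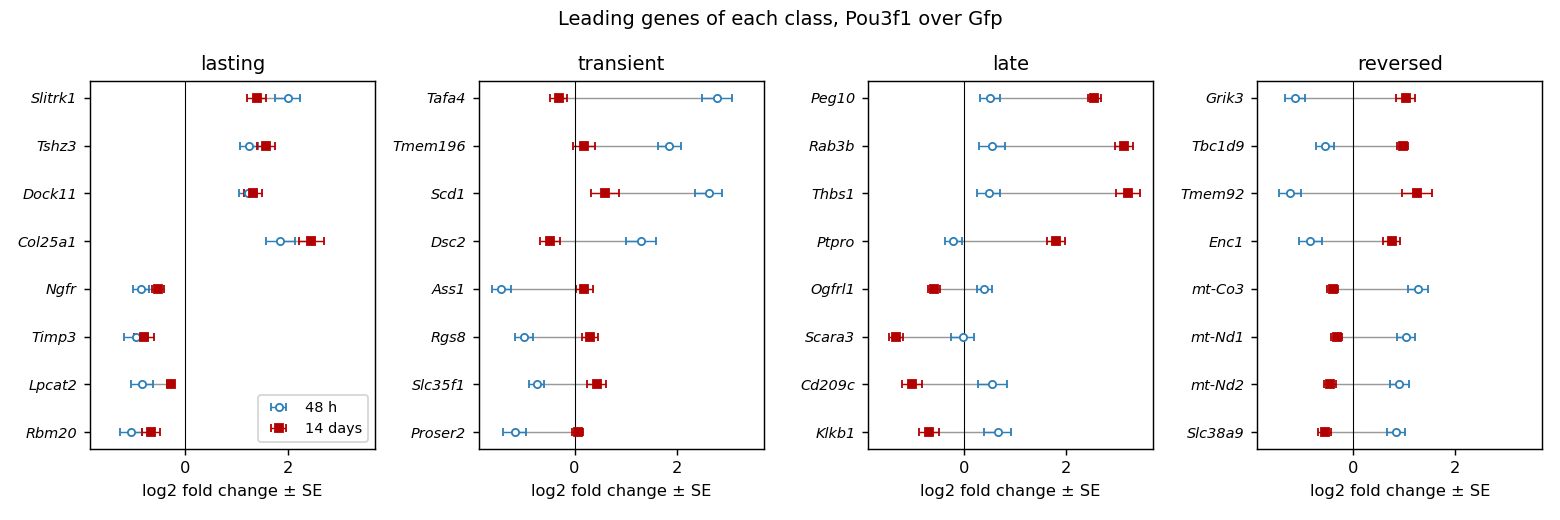
Log2 fold change of Pou3f1 over Gfp with its SE (horizontal) for the first 4 leading genes of each direction in the lasting, transient, late and reversed classes (vertical). Open circles are 48 h and filled squares 14 days, and grey lines join them. The differences of the 8 lasting genes plotted did not pass the test, while all 8 reversed genes plotted cross 0.

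All 13 protein genes of the mitochondrial genome, which encode subunits of the respiratory chain, had a lower response at 14 days than at 48 h. Of them 10 were reversed, 1 was transient and 2 were late, where 1.67% of all joined genes had a lower response at 14 days. Their median fold change (log2) went from 0.81 at 48 h to -0.44 at 14 days, with a median difference of -1.23, against 0.03 for all joined genes. In the authors' deposited tables mt-Co3, a subunit of cytochrome oxidase, had 1.27 ± 0.19 and -0.39 ± 0.11, and mt-Nd1, a subunit of complex I, 1.04 ± 0.18 and -0.32 ± 0.11. Their differences were -1.67 ± 0.22 and -1.36 ± 0.21 (adjusted p = 1.39e-11 and 3.57e-08). These genes are copied from 1 genome and share precursor transcripts, so they are not independent of each other. In the E17.5 comparison 9 of the 13 were higher in the knockout and 0 lower, where 4.51% and 5.5% of joined genes were called. With each table's trends with transcript length and GC content removed, which was tried only after seeing the data, the median difference was -0.79 and the differences of mt-Nd3 and mt-Nd4l no longer passed (adjusted p = 0.306 and 0.303).

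The microglia and interferon lists held many late genes. Of 23 genes of microglia and macrophages, immune cells outside the retinal lineage, 12 were joined, and 9 had a higher response at 14 days (4.55% of all joined genes) and 0 a lower one. Their median fold change (log2) went from -0.38 at 48 h to 1.69 at 14 days, with a median difference of 2.08, or 0.67 over the 3 members with a mean count of at least 50 in both tables. In the authors' deposited tables Csf1r, the receptor that microglia need for survival, had -0.49 ± 0.28 and 1.71 ± 0.24, at mean counts of 18.1 and 724. Its 48 h SE is near the largest at that time, 0.296, so its 48 h fold change is hard to read. Of the 11 genes that were not joined, 10 were called higher at 14 days as well. At 14 days 13% of all joined genes were called higher, and 226 genes outside them. The share over genes outside the joined set was not computed. The summed mean counts of the 12 were 3929 at 48 h and 16863 at 14 days, and the tables give no level per group. Since the cells were sorted pools, more cells of a type and more RNA per cell cannot be told apart, here or for any cell type below.

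Of 38 joined interferon response genes, 24 had a higher response at 14 days (4.55% of all joined genes) and 0 a lower one, and 23 of these were late. Their median went from 0.03 to 1.13. Usp18 had 0.31 ± 0.26 at 48 h and 3.1 ± 0.27 at 14 days in the authors' deposited tables (difference 2.80 ± 0.38, adjusted p = 5.68e-11). Ifi27 differed by 3.07 ± 0.39 (adjusted p = 2.73e-12) and B2m, the light chain of MHC class I, by 1.84 ± 0.31 (adjusted p = 5.57e-07). Ifi27 had a mean count of 30.5 and an SE of 0.291 at 48 h, near the largest then, so its 48 h fold change is hard to read. Both lists moved with the late class, and their part in the other late genes was not tested.

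**Figure D3:**
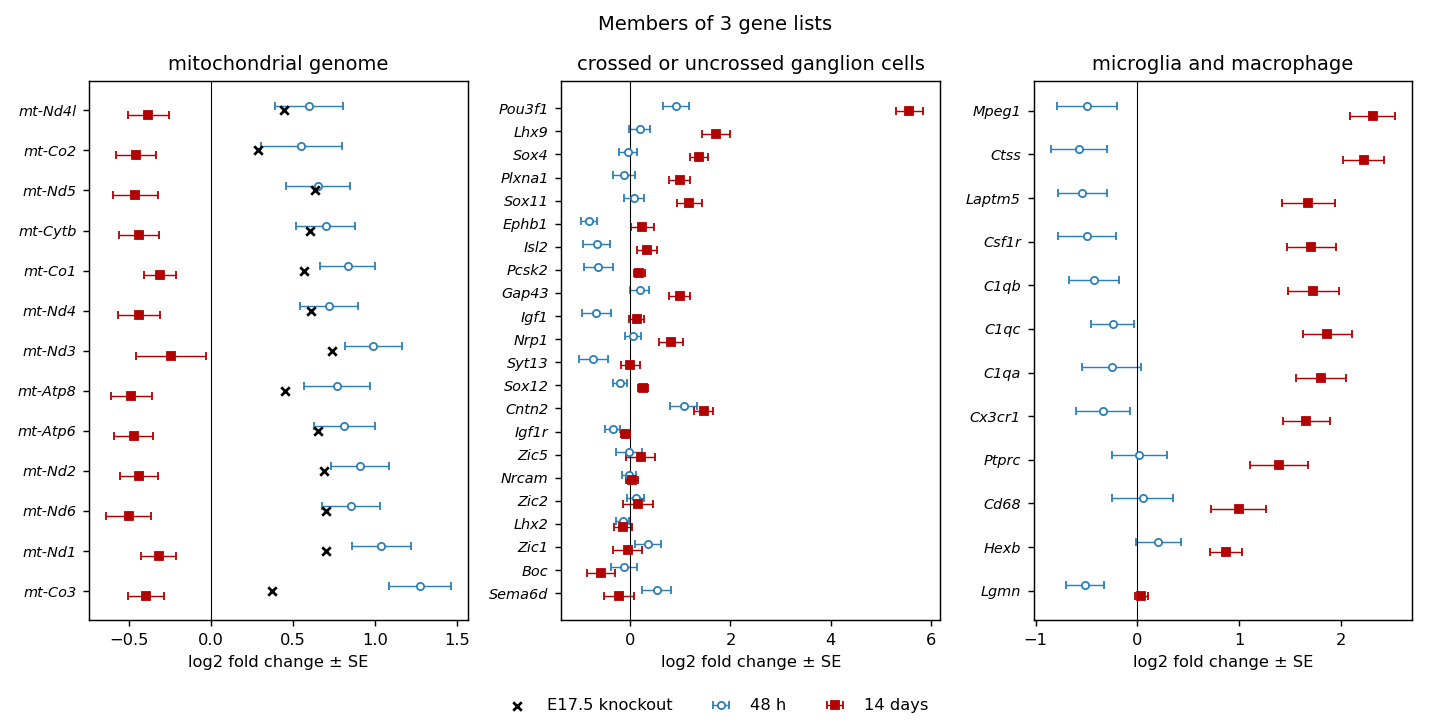
Log2 fold change of Pou3f1 over Gfp with its SE (horizontal) for joined members (vertical) of the lists of the mitochondrial genome, of ganglion cells with crossed or uncrossed axons and of microglia, with open circles for 48 h and filled squares for 14 days. Crosses in the first panel give the E17.5 knockout over heterozygote fold change, which has no SE in the deposited table. All 13 mitochondrial genes are above 0 at 48 h and below 0 at 14 days, and the 12 microglia genes have higher values at 14 days than at 48 h.

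Transcription factor lists of neurons held genes with a higher response at 14 days, where 4.55% of all joined genes were higher and 1.67% lower. Of 40 joined ganglion cell transcription factors, 10 had a higher and 1 a lower response at 14 days, with medians of -0.01 and 0.31. Sox4, an HMG box factor of young neurons, had -0.04 ± 0.19 at 48 h and 1.37 ± 0.18 at 14 days in the authors' deposited tables (difference 1.41 ± 0.26, adjusted p = 1.21e-05). Irx1, an Iroquois homeobox factor, differed by 2.02 ± 0.36 (adjusted p = 4.49e-06). Of 9 joined POU factors, 3 had a higher response at 14 days. Beside Pou3f1 and Pou4f2 this was Pou3f2, with -0.10 ± 0.20 and 1.43 ± 0.20 in the authors' deposited tables. Of 22 genes that mark ganglion cells with crossed or uncrossed axons, 7 were higher and 0 lower, among them Lhx9, a LIM homeobox factor, with a difference of 1.53 ± 0.36 (adjusted p = 0.00119). Pou3f1 and Sox4 stand in more than 1 of these lists.

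Of 22 joined genes of neurogenic progenitors, 7 had a higher response at 14 days and 0 a lower one, where 4.55% and 1.67% of all joined genes did. Their median was -0.20 at 48 h and 0.21 at 14 days. Neurog2, a proneural factor, had -0.73 ± 0.25 and 0.85 ± 0.26 in the authors' deposited tables (difference 1.58 ± 0.36, adjusted p = 0.000763). Hes6 differed by 0.83 ± 0.22 and Sox11 by 1.10 ± 0.32 (adjusted p = 0.00554 and 0.0179). Among 28 retinal progenitor genes, 8 were higher and 1 lower. Hes5, a Notch target, differed by 1.08 ± 0.26 (adjusted p = 0.0018). DNA replication genes had 0 of 37 called in either direction by the z test, 4 up and 2 down at p under 0.05 before adjustment, and a median difference of 0.01. In the knockout 26 of the 37 were higher, where 4.51% of joined genes were. Of 40 mitosis genes, 3 had a higher and 1 a lower response at 14 days, near the shares over all joined genes. Before adjustment 17 were up and 1 down at p under 0.05 in the z test, and 32 of the 40 differences were above 0. Their median was -0.27 at 48 h and 0.23 at 14 days, with a median difference of 0.44, against 0.03 for all joined genes.

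Lists of axon and guidance genes also held genes with a higher response at 14 days, where 4.55% of all joined genes were higher and 1.67% lower. Of 43 genes of axon growth and the neuronal cytoskeleton, 16 had a higher response at 14 days and 0 a lower one, with medians of -0.04 and 0.47. Stmn4, a stathmin, and Dcx, a microtubule protein of young neurons, differed by 1.71 ± 0.28 and 1.98 ± 0.36 (adjusted p = 2.63e-07 and 5.96e-06). Dcx had -0.54 ± 0.25 at 48 h and 1.44 ± 0.25 at 14 days in the authors' deposited tables. Of 38 guidance receptors, 14 were higher and 1 lower, with medians of -0.12 and 0.35. Robo1, a Slit receptor, had 0.18 ± 0.15 and 1.59 ± 0.23 in the authors' deposited tables (difference 1.41 ± 0.28, adjusted p = 4.27e-05). Dscam, an adhesion protein that spaces retinal neurites, and the ephrin receptor Ephb2 were late as well, by 1.3 ± 0.31 and 1.08 ± 0.22 (adjusted p = 0.00142 and 6.86e-05). Of 31 guidance ligands, 7 were higher, 2 lower, and 3 of the 31 were reversed.

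Of 61 genes of neuronal adhesion proteins 10 were lasting, where 0.548% and 0.349% of joined genes were lasting and higher or lower. Of the 61, 8 had a higher and 4 a lower response at 14 days. Of 42 synaptic vesicle and active zone genes, 6 were higher and 0 lower. Cplx2, a complexin, had -0.16 ± 0.17 and 1.54 ± 0.22 in the authors' deposited tables (difference 1.69 ± 0.28, adjusted p = 4.9e-07). Voltage-gated ion channels had 2 of 38 higher and glutamate receptors 2 of 22, where 4.55% of all joined genes were higher and 1.67% lower. Of 23 genes of inhibitory transmission 4 were higher and 1 lower, and Gad2, an enzyme of GABA synthesis, was late, by 1.0 ± 0.32 (adjusted p = 0.0366).

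The lists of other retinal cell types were examined in the same way, beside 4.55% higher and 1.67% lower over all joined genes. Of 21 amacrine cell genes, 6 were higher and 0 lower, with Tac1, a neuropeptide precursor, at 2.31 ± 0.37 (adjusted p = 1.35e-07). Of 12 joined rod genes, 0 had a called difference (z test), and 1 was up and 0 down at p under 0.05 before adjustment. Nr2e3, Cdhr1, Impg2 and Nrl among them had a 48 h SE between 0.289 and 0.296, near the largest then. Their 48 h fold changes are thus hard to read, and equal responses of rod genes at both times were not shown. Their medians were -0.49 at 48 h and -0.36 at 14 days. The authors' deposited table called 7 of them lower at 14 days, where 9.76% of all joined genes were. It also called 23 of the 24 rod genes listed outside the joined set lower, and 270 genes outside that set in all. Of 13 cone genes 1 was higher and 0 lower, and of 19 bipolar cell genes 3 were higher. At 14 days the authors' deposited table called 7 of the 13 cone genes and 3 further ones outside the joined set lower, where 9.76% of all joined genes were. Müller glia genes had 3 higher and 2 lower of 27, horizontal cell genes 1 higher of 12, and transcription factors of photoreceptor fate 2 higher of 14. At 14 days the authors' deposited table called 1 of the 27 Müller glia genes higher and 7 lower, and 2 outside the joined set lower. Of the 19 bipolar cell genes it called 3 higher and 3 lower then, and 3 outside the joined set lower. Over all joined genes 13% were called higher and 9.76% lower. Fabp7, a fatty acid binding protein on the cone list that progenitors and glia also make, was the cone gene, with 1.42 ± 0.29 (adjusted p = 0.000147).

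The lists of other tissues and of stress gave few called differences, which are given first, and some calls at 14 days. For the difference, 4.55% of all joined genes were called higher and 1.67% lower. Blood vessel genes had 0 higher and 1 lower of 13, and of 8 astrocyte and oligodendrocyte genes 1 was higher. The z test called 0 of 11 pigment epithelium genes (1 up and 1 down at p under 0.05 before adjustment), and 0 of 3 lens genes (0 and 0). Red blood cell genes had 0 joined of 10. Immediate early genes had 0 of 22 called in the z test (2 up and 0 down before adjustment) and sterol synthesis genes 0 of 24 (0 up and 3 down). Genes of p53 and cell death had 2 higher of 18. At 14 days alone, the authors' deposited table called 2 of the 22 immediate early genes higher and 8 lower, where 13% and 9.76% of all joined genes were called. It called 2 of the 13 blood vessel genes and 5 further ones outside the joined set lower. For the difference, 4 of 28 Notch and BMP genes were called higher and 0 lower. The authors' deposited tables called 5 of these higher and 1 lower at 14 days. At 48 h they called 0 higher and 6 lower, where 1.5% and 1.63% of all joined genes were.

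**Figure D4:**
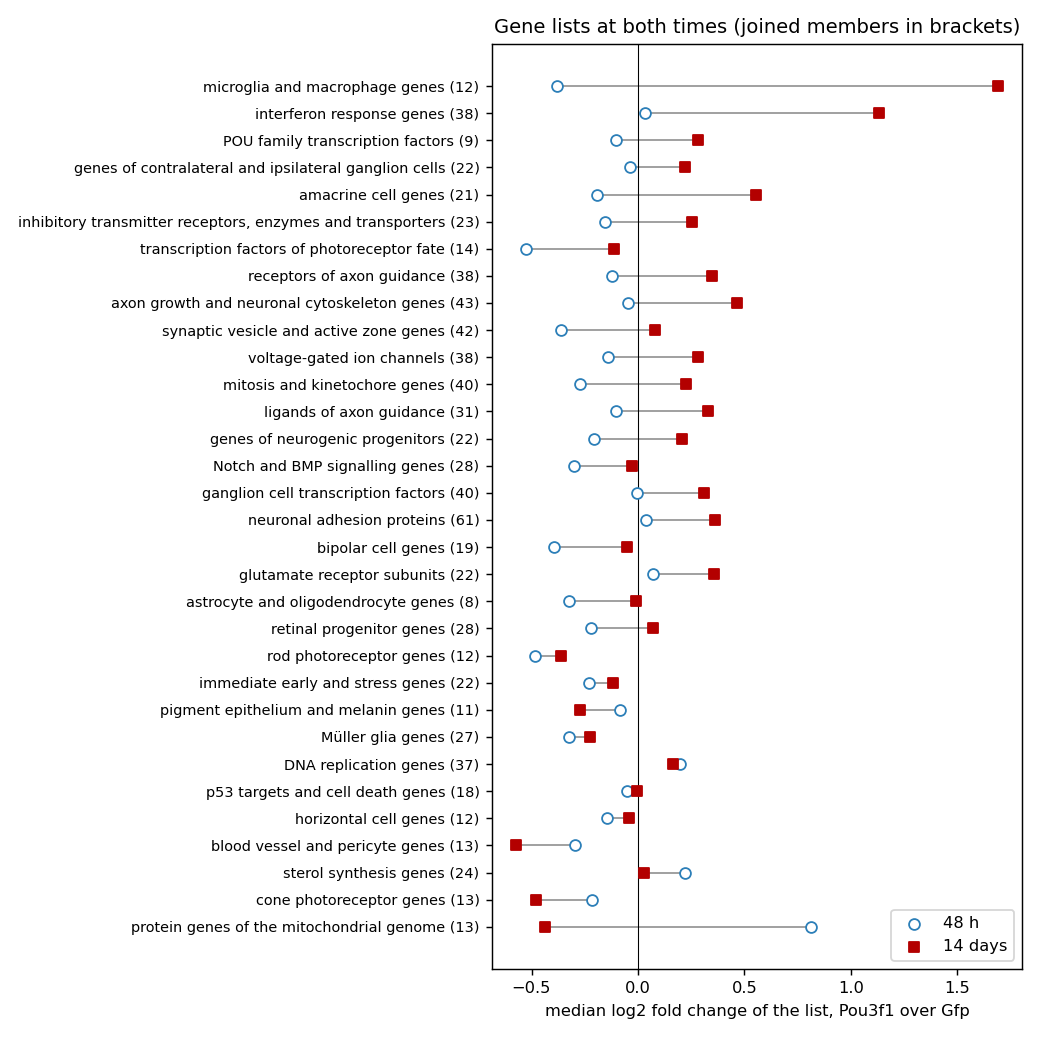
Median log2 fold change of Pou3f1 over Gfp (horizontal) for each gene list with at least 8 joined members (vertical, number of members in brackets), with open circles for 48 h and filled squares for 14 days. Microglia and interferon genes move furthest to the right between the times, and genes of the mitochondrial genome move to the left, from 0.81 to -0.44.

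The knockout table, from other libraries, was set beside the classes. Among joined genes with an adjusted p at E17.5, the authors' deposited table called 618 of 13697 higher (4.51%) and 753 lower (5.5%) in the knockout. Of transient genes that were lower at 48 h, 28 of 62 (45.2%) were lower in the knockout and 0 were higher, so these 28 were lower in the cells with added Pou3f1 and in the knockout retinas. The Pou3f1 transcript itself, by which the sign of that table was read, was not absent there but at -0.69 on the log2 scale against heterozygotes in the authors' deposited table. Among them were Nrxn3, with -1.02, and Plxna2, with -1.03, in the authors' deposited table (adjusted p = 2.24e-16 and 2.5e-19). Of reversed genes that went from lower to higher, 9 of 22 (40.9%) were lower in the knockout and 0 higher. Of those that went from higher to lower, 8 of 20 (40%) were higher and 0 lower, and all 8 were mitochondrial. Late genes that were higher at 14 days had 61 of 434 (14.1%) lower and 7 higher in the knockout. Lasting genes that were higher had 10 of 73 (13.7%) lower, and lasting genes that were lower had 10 of 48 (20.8%) lower as well.

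Across 14035 joined genes, the knockout fold change had a Pearson r of 0.24 with the 48 h response and -0.06 with the 14 day response (Spearman rho 0.26 and -0.01), as a description over genes that are not independent. The transient lower genes had a median mean count of 1304 at 48 h, against 523 for all joined genes. Their median transcript length was 5104 bases, against 3508, and that of reversed genes 5241 (lower to higher) or 2099 (higher to lower). The part of count and length in the shares was not tested. Genes lower at 48 h but left unsorted had 21 of 90 (23.3%) lower and 3 higher in the knockout. Genes higher at 14 days than at 48 h by the difference, but called at neither time, had 24 of 78 (30.8%) lower and 1 higher. The knockout retinas differ from the sorted cells in strain, age and cell makeup.

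**Figure D5:**
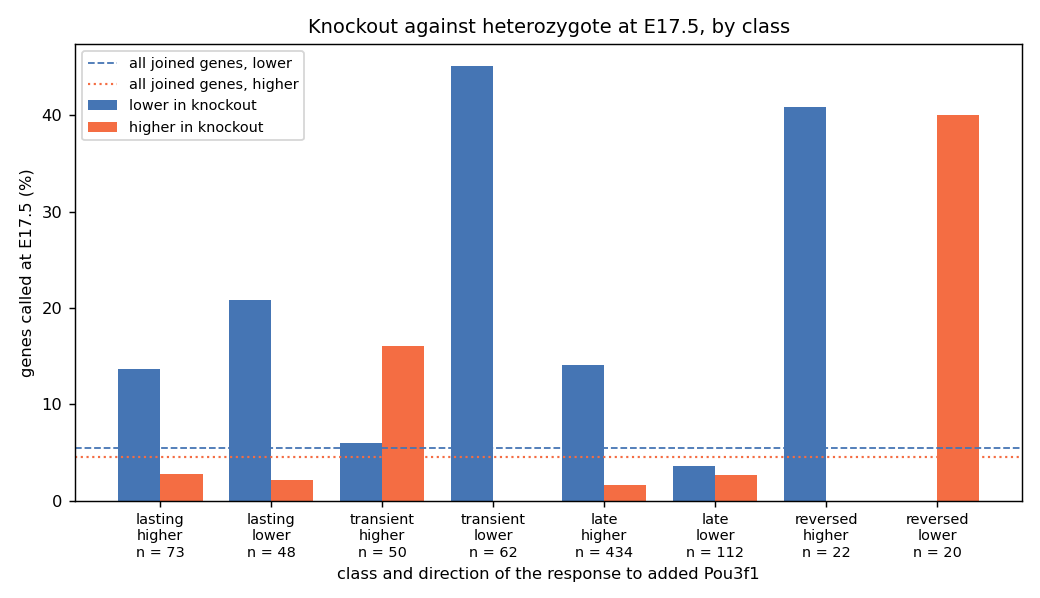
Share of genes in each class and direction (horizontal, with the number of genes that have an adjusted p at E17.5) called lower (blue) or higher (orange) in the knockout than in the heterozygote, in percent (vertical). The direction is that at 48 h for transient genes and at 14 days for the others, and the lines give the shares over all joined genes, 5.5% lower and 4.51% higher. Transient genes that were lower stand at 45.2% and reversed ones at 40.9% and 40%.

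The joined genes leave part of the 14 day response outside. They held 99.8% of the summed mean counts at 48 h and 89.4% at 14 days. The authors' deposited tables called 496 genes at 14 days (226 higher, 270 lower) and 8 at 48 h that were not joined. Of the 496, 386 were listed at 48 h below the limit and 99 were not listed then, and these could not be sorted.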

How the data were processed

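The 3 deposited tables each give the result of 1 comparison per gene, without values for single libraries, so library totals are not known. Salmon, DESeq2, MACS2 and the mm10 build are named per the submitters' processing notes, with no version given there. A signal column is, per the file headers, the base mean, read as the authors' normalized count averaged over libraries. The log2 fold changes, their SE, the Wald score and the p-values with their adjustment were deposited by the authors. On the values, the score equals fold change over SE within 4.45e-07, and the fold changes are shrunken, with no SE above 0.297.

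The headers name no direction. The overexpression tables were read as Pou3f1 over Gfp because Pou3f1 is then higher, and at E17.5 the sign was taken so that Pou3f1 is lower in the knockout, at -0.69.

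Groups follow the sample labels. From the deposited values, the difference of the 2 fold changes, its SE (the root of the summed squares) and a two-sided z test were computed, adjusted by Benjamini-Hochberg over 14040 genes. At 14 days 19 joined genes have no adjusted p and count as not called. On data simulated for this difference with 14040 genes, 18%, 68%, 88% and 98% of differences of 0.5, 1, 1.5 and 2 were called, and 3.55% of calls were unchanged genes. The simulation took the deposited SE as exact and added no shrinkage, so these shares do not test what shrinkage does to the calls.

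The genes, classes and 34 gene lists were chosen with earlier results of these data known, so a list's direction is not independent support. Genes were named by a rule: Pou3f1, then up to 8 per class and direction with mean counts of at least 50 and no predicted name. Lasting genes were ranked by the smaller of the 2 absolute Wald scores and the others by absolute z. Up to 4 genes were added per list by p of the difference, and up to 4 per direction where neither time was called. Csf1r, Ebf3, Neto2, Ermn, Tent5a, Cdon and Cplx3 were named outside it, after their values were seen. Some genes named by the rule are not reported here. Gene positions and transcript length and GC are from GENCODE release 21 (GRCm38, 14021 joined genes matched), and promoters from RefSeq (GRCm38.p6).

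Alternatives were other mean count limits, stricter thresholds, adjustment over the joined genes, centring, undone shrinkage, Wald scores and leaving out gene types. Python 3.11.15 was used with pandas 2.3.3, numpy 2.4.6 and scipy 1.17.1.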

Additional observations from a re-analysis of the deposited data

Results flagged for a closer look

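The response to added Pou3f1 differed between 48 h and 14 days, by the z test of the difference, for 639 genes that were higher and 234 that were lower at 14 days than at 48 h. The differences in which the 2 times were each called in opposite directions are given here for the leading genes, as log2 fold change at 14 days minus that at 48 h. Genes that went from lower to higher were Grik3 (2.16), Tbc1d9 (1.52), Tmem92 (2.48), Enc1 (1.58), Slit1 (1.6), Arhgap31 (1.52), Tmem158 (1.5) and Trib1 (1.3). Genes that went from higher to lower were mt-Co3 (-1.67), mt-Nd1 (-1.36), mt-Nd2 (-1.35), Slc38a9 (-1.39), mt-Nd6 (-1.35), mt-Co1 (-1.14), mt-Atp6 (-1.28) and Slx1b (-1.14).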

How the results depend on the processing

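Among the named genes that each alternative covered, no difference called in the main result or in that alternative turned direction. Uncalled differences were not followed for direction. With Wald scores the direction was still that of the fold change difference, so it could not turn there. The named genes covered were 147 of 181 with the shrinkage undone and 158 at a mean count limit of 50. They were 173 without pseudogenes, predicted and mitochondrial genes, 180 with no mean count limit, and 181 otherwise. At an adjusted p under 0.01 there were 341 higher and 95 lower differences, with 56 lasting, 56 transient, 292 late and 15 reversed genes. With the shrinkage approximately undone there were 1561 higher and 789 lower differences, with 190 transient and 954 late genes. This alternative rests on an assumed prior and is unreliable where the SE is close to its limit. Comparing Wald scores gave 420 lower differences and 980 late genes, and a 1.5-fold limit left 73 lasting and 15 reversed genes. These settings change the thresholds or the scale by construction. The share of higher among called differences was 73.2%, and it lay between 66.4% and 78.2% over all alternatives. With length and GC trends removed, which was tried only after seeing the data, 89 of the 117 transient and 427 of the 574 late genes kept their class, and without pseudogenes, predicted and mitochondrial genes 30 of the 43 reversed genes did and 8 reversed genes went from higher to lower. List medians moved for 21 of 33 lists with shrinkage undone, for 3 at a mean count limit of 50, for 2 with no limit and for 1 with length and GC trends removed. The median difference of the POU list, 0.77, was 0.05 at a mean count limit of 50 and -0.05 with shrinkage undone, and that of the horizontal cell list, -0.13, was 0.18 and 0.20.

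No paired analysis was possible because the tables give no value per library, and for the same reason leaving out each library was not run. The lens list had no joined gene at a mean count limit of 50, and the mitochondrial list none once its genes were left out. Depth per library is unknown, and the larger SE at 48 h limits which 14 day responses can be termed late.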
